A study of Mus musculus with 6 samples.

Results

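PU.1 binding was examined at 9 loci of the cell cycle and of lipid synthesis: the cyclin genes Ccnd1, Ccnd2 and Ccne1, the kinase gene Cdk6, the transcription factor genes E2f1 and Myc, the inhibitor genes Cdkn1a and Cdkn1b, and Acly. The members are all peaks that overlap a fixed window around each gene in mouse build mm9. The windows were set by position and not by peak values, and together they span 1.05 Mb. Genes and windows were, however, chosen with earlier results of these data known. After peaks of the 4 PU.1 libraries with at least 1 bp in common were merged, the windows held 103 of the 82810 regions found in the whole genome. The data are ChIP-seq peak lists from iBN cells, a mouse line described by the labels as granulocyte-macrophage progenitors and carrying an inducible PU.1 system, kept in medium with GM-CSF. The induced group had received doxycycline at 1000 ng/ml for 72 hours (2 libraries), the uninduced group none (2 libraries), and chromatin of both groups was precipitated with the same polyclonal PU.1 antibody. The sources used here give neither the promoter that drives the inducible system, nor its background alleles, nor whether the line is a single clone, and nothing says whether the 2 libraries of a group came from separate cultures.

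PU.1 is the product of Spi1 and belongs to the ETS family. It directs the development of macrophages, granulocytes and B cells and binds DNA around a GGAA core. The D cyclins encoded by Ccnd1 and Ccnd2 activate CDK4 and CDK6, which phosphorylate the retinoblastoma protein and release E2F factors such as E2F1. E2F factors then drive Ccne1, whose product cyclin E1 activates CDK2 for entry into S phase. Cdkn1a and Cdkn1b encode p21 and p27, inhibitors of cyclin-dependent kinases, and Myc encodes a transcription factor that promotes growth and division. Acly encodes ATP citrate lyase, which makes cytosolic acetyl-CoA for the synthesis of fatty acids and sterols.

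For 6 of the 9 genes a RefSeq table of promoters (build GRCm38.p6) held a sequence, with 7 promoters in all. No mm9 sequence or gene annotation was used here, so peaks cannot be placed on these promoters, and the letters under the peaks are not shown. Within the 250 bases before the start site that the table lists, 3 of the 7 held the letters GGAA on either strand. Of all 32851 promoters in that table, 93.4% did. This difference was not tested, and a listed start need not be the main start of its gene. None of the 7 held GAGGAA or GAGGAAGT on either strand, found in 23.3% and 2.44% of all promoters. GAGGAA and GAGGAAGT contain GGAA, so these counts overlap. The 3 promoters with a match, from Cdkn1a and Cdk6, are shown 5′ to 3′ on the strand of the gene to make the match visible, with GGAA or its reverse complement TTCC in capitals. Cdkn1a has 2 start sites in the table.
Cdkn1a, first promoter: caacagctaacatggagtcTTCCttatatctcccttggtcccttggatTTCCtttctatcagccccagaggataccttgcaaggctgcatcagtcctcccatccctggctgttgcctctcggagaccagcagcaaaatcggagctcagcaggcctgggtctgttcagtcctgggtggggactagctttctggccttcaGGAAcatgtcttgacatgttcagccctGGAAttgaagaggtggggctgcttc
Cdkn1a, second promoter: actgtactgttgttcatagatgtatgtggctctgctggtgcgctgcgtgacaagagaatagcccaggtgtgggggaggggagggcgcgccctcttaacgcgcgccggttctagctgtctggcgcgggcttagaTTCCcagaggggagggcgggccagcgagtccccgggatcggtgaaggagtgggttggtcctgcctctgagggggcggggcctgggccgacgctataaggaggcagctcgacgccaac
Cdk6: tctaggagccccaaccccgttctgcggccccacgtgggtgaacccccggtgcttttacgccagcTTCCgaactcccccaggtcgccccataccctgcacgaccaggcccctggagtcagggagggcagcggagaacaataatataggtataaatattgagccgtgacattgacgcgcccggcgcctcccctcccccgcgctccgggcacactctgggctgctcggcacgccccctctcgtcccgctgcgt
The first Cdkn1a promoter held 4 matches, the second 1 and that of Cdk6 1. A match is a description of the letters and not a binding site.

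The 4 lists differed in length, from 31960 peaks in uninduced replicate 1 and 42951 in uninduced replicate 2 to 57336 and 68076 in the induced lists, and the read depth behind them is unknown. No peak had the same position and score in 2 libraries. Each peak carries 1 score from the authors' peak caller, with 50 as the lowest value. The sources used here do not state its scale, so scores are used to describe or rank peaks within a list.

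The first question was how much of the 9 loci PU.1 occupied before and after induction. The windows held 97 and 84 peaks in induced replicates 1 and 2, and 41 and 60 in uninduced replicates 1 and 2. Both induced libraries therefore lay above both uninduced ones, with 90.5 ± 9.19 against 50.5 ± 13.44 peaks (mean ± SD, n = 2), a ratio of 1.79. Over the whole lists the same ratio was 1.67. Peaks covered 130.09 and 103.07 kb of the windows in the induced and 46.64 and 62.6 kb in the uninduced libraries, a ratio of 2.13 against 1.94 genome-wide. The exact two-sided permutation test over libraries gave p = 0.33 for peak number and for covered length, the smallest value that 2 libraries against 2 allow. Such p-values measure only the spread between these libraries, which may be technical. With every list limited to its 31960 best peaks, the windows held 49 and 45 induced and 41 and 49 uninduced peaks, and the groups overlapped (exact permutation p = 1.0). Covered length still did not overlap with such lists, with a difference of 26.2 kb in place of 61.96 kb.

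The loci were rich in peaks in every library. They held 9.24 and 8.0 peaks per 100 kb in the induced libraries and 3.9 and 5.71 in the uninduced ones. Tiles of 100 kb across the genome with a peak in any library held on average 3.64, 3.06, 1.71 and 2.29. This did not hold for each locus, since Ccnd1 had 0 and 2 peaks in the uninduced libraries, below those means. At 6 loci (Ccnd1, Cdk6, E2f1, Myc, Cdkn1a and Acly) both induced libraries had more peaks than both uninduced ones, and at Ccnd2, Ccne1 and Cdkn1b the groups overlapped. The same order was found in 41.5% of all tiles and in 68.7% of the 6546 tiles that held at least 12 peaks over the 4 libraries, the number in the least populated window. Covered length was greater in both induced libraries at all 9 loci, as in 87.2% of those tiles. The windows at 6 loci are 100 kb wide, and those of E2f1, Acly and Cdk6 are 90, 110 and 250 kb.

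**Figure D1:**
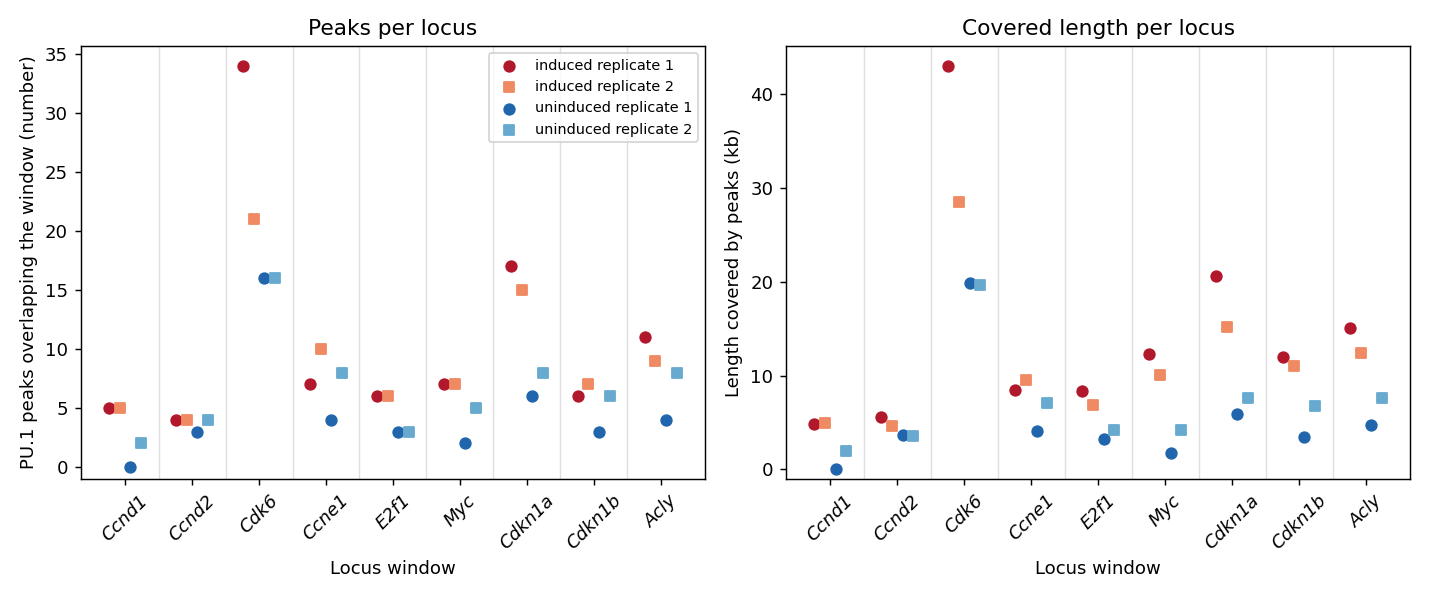
Number of PU.1 peaks (left) and length covered by peaks in kb (right) at each of the 9 locus windows. Each point is 1 library, induced in red and orange and uninduced in dark and light blue. Cdk6, with the widest window, ranges from 16 to 34 peaks, and at Ccnd1 uninduced replicate 1 has 0.

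A second comparison sorted the regions by the libraries in which they had a peak. Of the 103 regions, 35 (34%) were found in each of the 4 libraries (shared regions), against 23.4% of all regions. Another 23 (22.3%) were found in both induced libraries but not in an uninduced one (gained regions), against 22.2% of all regions. The share of gained regions at these loci was thus close to that of the genome. No region was lost, that is, present in both uninduced and absent from both induced libraries, against 3.8% of all regions. The other 45 regions were mixed. Among these, 15 (14.6%) had a peak in every library but uninduced replicate 1, as did 14.6% of all regions, and 18 (17.5%) had one only in induced replicate 1, against 15.4%. Presence in 2 libraries and absence from 2 cannot pass a test, so no p is given.

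These classes depend on the lists. With lists of equal length 7 of 62 regions (11.3%) were gained, 24 shared and 3 lost, the last at Cdk6, Ccne1 and Myc. The shares over all regions of the genome under this and the following settings were not computed. Whether these counts are particular to the loci was therefore not tested. Without induced replicate 2 the gained regions numbered 41, and without uninduced replicate 2 they numbered 38. Leaving out a library loosens the definition, so the number of gained regions cannot fall. Without induced replicate 1, and likewise without uninduced replicate 1, 1 region was lost. Of the 23 gained regions, 4 were also gained under each of 3 settings, with 1 at Ccnd1, 1 at Myc and 2 at Acly. The settings were peaks scoring at least 100, lists of equal length and an overlap of 50% of both intervals. Gained regions have no uninduced peak, so a score limit or a shorter list can remove them only through their induced peaks.

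**Figure D2:**
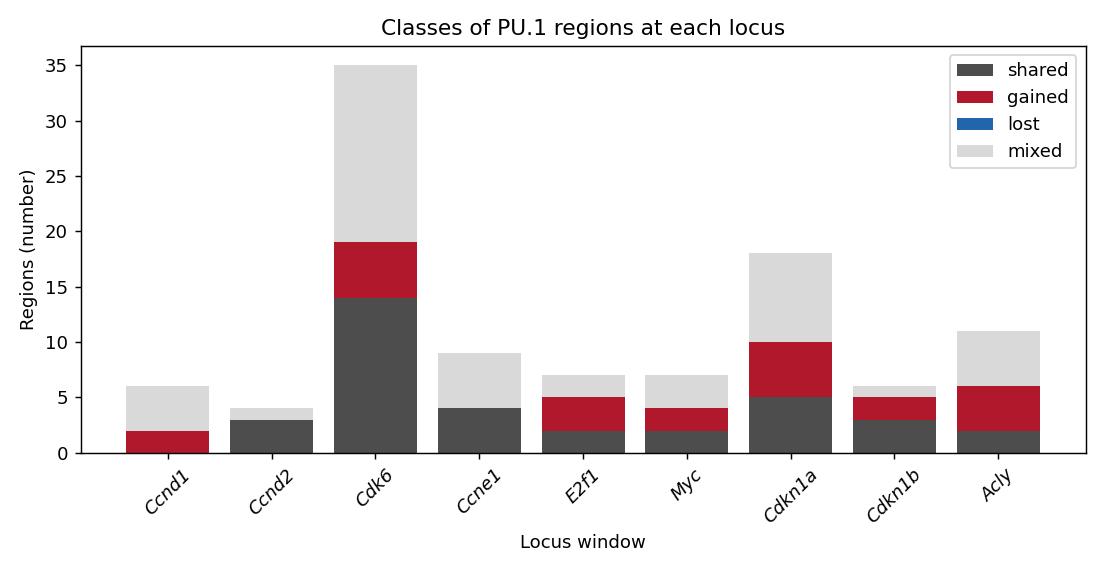
Number of PU.1 regions of each class at each locus, as stacked bars: shared (peak in all 4 libraries), gained (both induced and neither uninduced), lost (the opposite; 0 at every locus) and mixed. Ccnd1 has no shared region, and Ccnd2 and Ccne1 have no gained region.

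Of the 23 gained regions, 13 (56.5%) had a shared region at most 10 kb away, against 33.1% of all gained regions of the genome. The windows are denser in peaks than the genome, and whether that accounts for the difference was not tested. The authors' merged induced list held a peak at each of the 23, and the merged uninduced list at 2 of them, at Myc and Cdkn1b. The merged lists are of the same 2 conditions, so this is not an independent check. At chr5:3343486-3344986 and chr17:29230045-29231172 the merged induced score equalled that of the adjacent region, which had an uninduced peak. The lower of the 2 induced scores had a median of 88.62 in the 23 gained regions and 88.95 in all gained regions. Its median was 299.7 in the shared regions of the windows and 315.43 in all shared regions. In strength, the gained and shared regions of these loci were thus near the middle of their class. A gained region has to lie under the threshold in the uninduced lists, but the definition sets no upper limit on its induced scores. Whether that selection accounts for the gap between the 2 classes was not tested.

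The D cyclin genes differed from each other. At Ccnd1 (chr7:152080000-152180000) there were 5 and 5 peaks with induction and 0 and 2 without it. Peaks covered 4.85 and 4.91 kb with induction and 0 and 1.96 kb without it, so the ratio of the means turned on uninduced replicate 1 and was 2.49 when that library was left out. This locus alone among the 9 had no shared region. Its strongest region, chr7:152095328-152096487, scored 1078.79 and 774.91 in induced replicates 1 and 2, above 92.1% and 91.9% of their peaks. It had no peak in uninduced replicate 1 and scored 56.93 in uninduced replicate 2, close to the lowest score of 50 in that list, where 9.7% of peaks scored lower. Next to it, chr7:152100232-152101652 followed the same pattern, with 283.48 and 205.94 in the induced libraries and 68.38 in uninduced replicate 2. Another, chr7:152108512-152109566, was gained, with induced scores of 494.57 and 278.61. Both uninduced libraries and the merged uninduced list lacked a peak there. With lists of equal length uninduced replicate 2 lost its weak peaks at the first 2 regions, so all 3 regions counted as gained. The difference of 4 peaks became 3. The other regions of the locus scored at most 89.35.

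At Ccnd2 (chr6:127050000-127150000) the numbers were 4 and 4 against 3 and 4 peaks, so the groups overlapped. No region was gained, and 3 of the 4 regions were shared. The strongest, chr6:127112501-127113648, scored 561.92 and 325.48 with induction and 690.23 and 613.65 without it. To compare such sites across lists, the 19391 shared regions of the genome were ranked by score within each library, so that the same set is ranked 4 times and a rank is a percentile of that set. By this measure the region stood at 54.6 and 50.7 in the induced and at 87.3 and 84.1 in the uninduced libraries. The other shared regions, chr6:127057121-127060141 and chr6:127092828-127093852, had mean shifts of -20 and -10.4 percentile points. All 3 ranked lower in both induced than in both uninduced libraries, an order found in 30.8% of all shared regions. With lists of equal length Ccnd2 had a mean difference of -1.5 peaks, induced minus uninduced, in place of 0.5. In the RefSeq table the genes next to Ccnd2 on one side are Fgf23 and Tigar, and a window can hold peaks nearer to such neighbours than to the gene that names it.

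At Cdk6 (chr5:3300000-3550000), the partner kinase of the D cyclins, 35 regions were found in the widest window, 14 shared, 5 gained and 16 mixed. The lists held 34 and 21 peaks with induction and 16 and 16 without it. The induced replicates differed here more than at any other of the 9 loci, and 13 fewer peaks were called in the second. The difference of 11.5 peaks became 5 without induced replicate 1, 18 without induced replicate 2 and 0 with lists of equal length. Regions lay close together around the strongest one: 8 of them, separated by gaps of at most 5 kb, spanned 22.8 kb from chr5:3484649 to 3507483, with 5 shared and 1 gained among them, a stretch chosen after its values were seen.

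The strongest Cdk6 region by the lower induced score, chr5:3489571-3492475, scored 1864.54 and 1507.98 with induction and 208.02 and 438.7 without it. Its rank among shared regions was 91.9 and 95 with induction and 57.2 and 73.7 without it. A second region, chr5:3501114-3503418, scored 2289.13 and 1288.06 with induction and 838.98 and 1186.12 without it, and its ranks of 95.1, 92.6, 90.4 and 95.9 overlapped between the groups. The 2 sites thus stood about level in the induced lists and apart in the uninduced ones. In all, 8 of the 14 shared Cdk6 regions ranked higher in both induced libraries, 5 overlapped and 1 ranked lower. The largest upward shift was 37.6 points, at chr5:3340348-3343062, with scores of 809.55 and 587.2 with induction and 137.89 and 120.92 without it. With an overlap of 50% of both intervals that site was split into a gained and a lost region, so its shift depends on merging at 1 bp. The 1 that ranked lower, chr5:3433727-3434910, scored 137.43 and 60.51 with induction and 369.18 and 152.79 without it, a shift of -45.3 points and the largest downward one at the 9 loci. Gained regions at Cdk6 were weak. The strongest by the lower induced score, chr5:3494016-3495227, scored 159.78 and 127.74 and lay just after the shared region chr5:3492693-3493848. The highest single score, 225.4 in induced replicate 1, was at chr5:3361627-3362756, which scored 55.9 in induced replicate 2. Fam133b is among the neighbours of Cdk6 in the RefSeq table.

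Ccne1 (chr7:38840000-38940000), which encodes cyclin E1, had 7 and 10 peaks with induction and 4 and 8 without it, so the groups overlapped. With lists of equal length the difference of 2.5 peaks turned to -2, and it ran from 0.5 without uninduced replicate 1 to 4.5 without uninduced replicate 2. The locus had 9 regions, 4 of them shared and none gained. Its highest lower induced score belonged to chr7:38934121-38935437, with 265.59 and 215.87 in the induced libraries, no peak in uninduced replicate 1 and 105.23 in uninduced replicate 2. The highest score in any library at this locus was 305.67, the lowest such maximum among the 9 loci. The ranks of all 4 shared regions overlapped between the groups. At chr7:38892121-38894054, for example, the scores were 304.24 and 85.06 with induction and 101.97 and 305.67 without it, so the order of the replicates was opposite in the 2 groups.

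E2f1 (chr2:154350000-154440000) had 6 and 6 peaks with induction and 3 and 3 without it. The groups did not overlap, but with lists of equal length the difference of 3 became 0. The main site, chr2:154394011-154396319, was strong before and after induction, with scores of 1745.51 and 1448.1 with induction and 1161.8 and 1007.23 without it. Its ranks of 90.4, 94.4, 94.1 and 93.9 overlapped between the groups. A second shared region, chr2:154399568-154400867, ranked lower in both induced libraries (35.3 and 29.6 against 46.5 and 46.5). Of the 3 gained regions, the strongest was chr2:154438631-154439821, whose scores of 423.1 and 113.56 differed between the induced replicates. The locus also held the only region of the 103 with no induced peak, chr2:154386073-154387198, scored 104.14 in uninduced replicate 2 alone. Actl10 and Pxmp4 are among the genes beside E2f1 in the RefSeq table.

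Myc (chr15:61770000-61870000) had 7 and 7 peaks with induction and 2 and 5 without it. Peaks covered 12.26 and 10.07 kb with induction and 1.75 and 4.22 kb without it, a ratio of 3.74 that became 2.65 without uninduced replicate 1 and 6.38 without uninduced replicate 2. The difference of 3.5 peaks became 2 without uninduced replicate 1 and 1 with lists of equal length. Its gained region chr15:61814596-61819837 was 5242 bp wide, the widest of the 103, and scored 906.21 and 581.3 in the induced libraries. The lower score exceeded that of 99.2% of all gained regions in the genome. Neither uninduced library had a peak there, but the authors' merged uninduced list did, with a score of 95.26. It was gained under each of the 3 settings named above. Other strong sites had a peak in uninduced replicate 2 and none in uninduced replicate 1. The first, chr15:61833921-61835204, scored 797 and 506.78 in the induced libraries against 223.41, and the second, chr15:61866014-61867402, scored 971.97 and 622.16 against 114.88. The shared sites were weaker. The shared site chr15:61819990-61821444 begins just after the end of the wide gained region. It scored 291.6 and 183.56 with induction and 90.11 and 144.76 without it. At chr15:61863424-61864405 the induced scores of 137.44 and 112.16 stood beside uninduced scores of 255.9 and 101.77, and its induced ranks of 12.1 and 16.4 lay below the uninduced ranks of 63.7 and 16.7, in replicate 2 by little. The long noncoding RNA gene Pvt1 follows Myc in the RefSeq table.

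**Figure D3:**
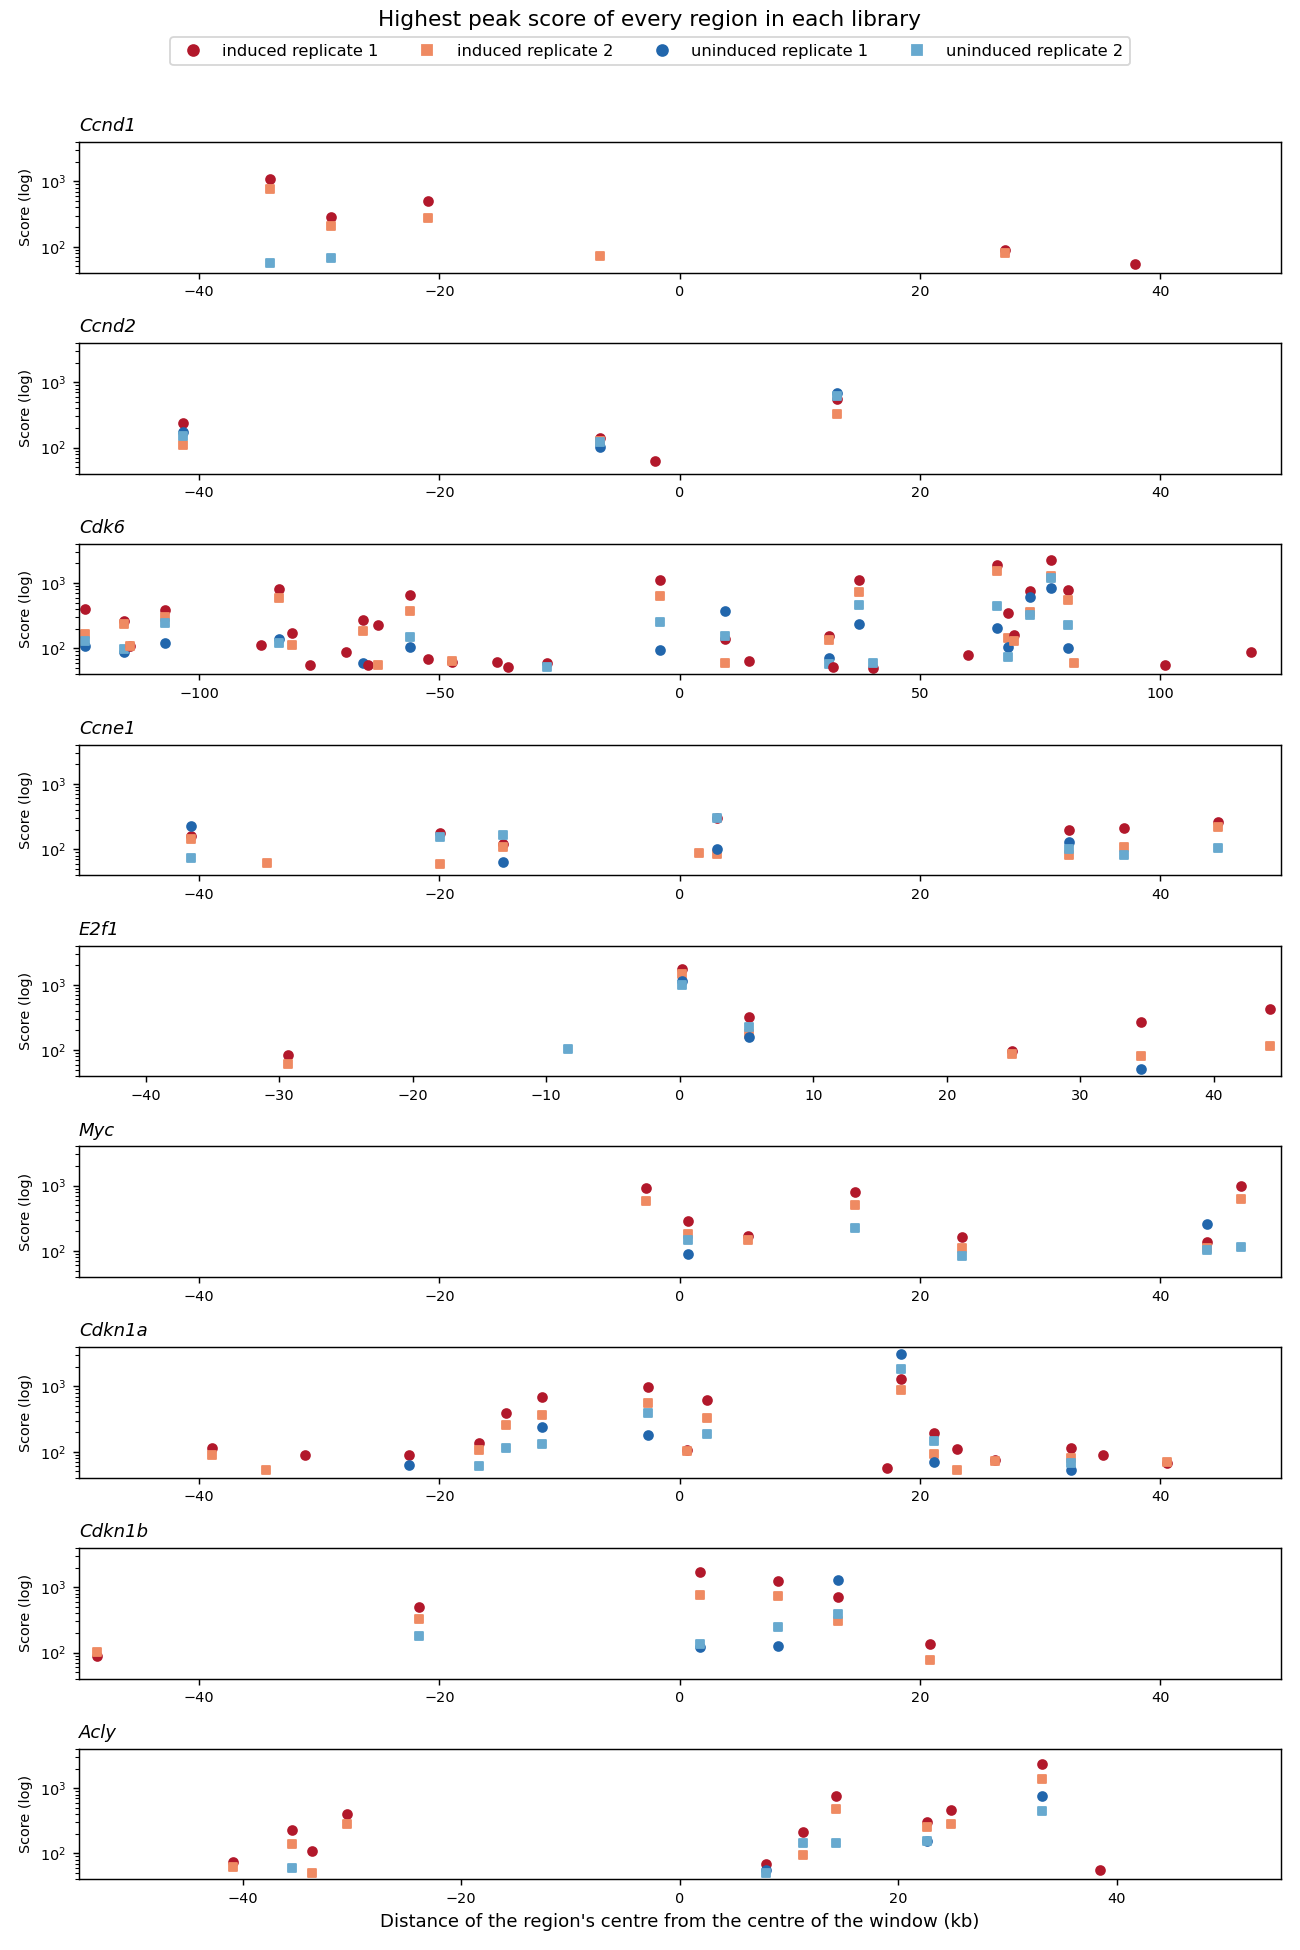
Highest PU.1 peak score of every region (log axis) against the distance of the region's centre from the centre of its window in kb, 1 panel per locus; each symbol is 1 library and a missing symbol means that no peak was called. Cdkn1a has the highest uninduced score (3100), Acly the highest induced one (2306.65), and the 3 strongest Ccnd1 regions lack a symbol for uninduced replicate 1.

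The inhibitor genes held both strongly bound sites and gained regions. With lists of equal length neither gene had a gained region. Cdkn1a (chr17:29180000-29280000), encoding p21, had 17 and 15 peaks with induction and 6 and 8 without it. With lists of equal length the difference of 9 peaks turned to -0.5. The locus had 18 regions, 5 shared, 5 gained and 8 mixed. The highest score within the 9 windows in each uninduced library was here: chr17:29247830-29249035 scored 3100 and 1824.87 without induction and 1286.18 and 896.64 with it. Its ranks were 99.8 and 99 without induction and 82.7 and 84.6 with it, a shift of -15.7 points. The value 3100 recurs among the highest scores of the lists. Another shared region moved the other way: chr17:29226536-29228209 scored 993.69 and 565.86 with induction and 179.71 and 396.08 without it, with ranks of 74.6 and 70.4 against 51.9 and 70.1, the smallest gap between groups being slight. The 5 gained regions were weak, the strongest by the lower induced score being chr17:29230045-29231172 with 105.29 and 104.54. The RefSeq neighbours of Cdkn1a include Trp53cor1, a long noncoding RNA gene, and Rab44.

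Cdkn1b (chr6:134820000-134920000), encoding p27, had 6 and 7 peaks with induction and 3 and 6 without it, so peak numbers overlapped, whereas covered length did not (12.01 and 11.02 against 3.45 and 6.73 kb). The difference of 2 peaks became 0.5 both without uninduced replicate 1 and with lists of equal length, and 3.5 without uninduced replicate 2. Its region chr6:134869832-134873583 showed the largest upward rank shift of the 35 shared regions, 53.6 points. It scored 1734.22 and 773.93 with induction and 123.31 and 133.6 without it, and its ranks were 90.2 and 80.2 against 37.2 and 26.1. The neighbouring region chr6:134876683-134879723 ranked higher by 36.2 points, with scores of 1250.01 and 736.84 against 126.56 and 243.16. When peaks had to overlap by 50% of both intervals, each of these sites was split into a gained and a lost region and was no longer shared, so both shifts depend on the 1 bp rule. Another site of the locus, chr6:134882401-134883927, went the other way, with 706.21 and 305.65 with induction and 1289.17 and 395.88 without it, a shift of -26.8 points. Both gained regions were weak, with 89.09 and 103.37 at chr6:134821120-134821869, where the merged uninduced list had a peak of 53.6. Gpr19 and the long noncoding RNA gene Lockd are among the RefSeq neighbours of Cdkn1b.

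Acly (chr11:100320000-100430000) had 11 and 9 peaks with induction and 4 and 8 without it. The difference of 4 peaks became 1.5 with lists of equal length and 2 without uninduced replicate 1. Its region chr11:100406224-100410191 held the highest induced score of the 9 loci, 2306.65 in induced replicate 1 and 1362.86 in induced replicate 2, above 98.5% and 97.5% of their peaks. In each induced library it was 1 peak, of 3891 and 3663 bp, and the uninduced libraries had 2 and 3 narrower peaks in its place, with highest scores of 747.51 and 441.98. Its ranks were 95.3 and 93.4 with induction and 88.6 and 74 without it, and with the 50% overlap it too was split, into 1 gained and 2 lost regions. Acly had 4 gained regions, of which chr11:100399200-100400405 (465.39 and 285.55) and chr11:100343950-100345093 (395.36 and 284.31) were gained under all 3 settings as well. Neither had a peak in the merged uninduced list. Klhl10 and Klhl11 precede Acly in the RefSeq table.

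Across the 35 shared regions of the windows, the median rank was 42.62 and 47.97 with induction and 41.45 and 32.09 without it. The difference of 8.52 points gave p = 0.33 in the exact permutation test, the smallest possible. Without the Cdk6 window the difference was -6.98 points (exact permutation p = 0.667). It was 2.87 points without uninduced replicate 1 and 3.74 without uninduced replicate 2. The median of the single shifts was 0.8 points, with a range from -45.3 to 53.6, against a median of 0.2 over all shared regions. Of the 35, 14 ranked higher in both induced libraries, 8 ranked lower and 13 overlapped. Over the genome 30.6% ranked higher and 30.8% lower. The upward shifts lay mostly at Cdk6 (8 regions), Cdkn1a and Cdkn1b (2 each), with 1 each at Myc and Acly, and the downward ones at Ccnd2 (3) and at Cdk6, E2f1, Myc, Cdkn1a and Cdkn1b (1 each). Neighbouring regions of 1 locus share their surroundings and are not independent.

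**Figure D4:**
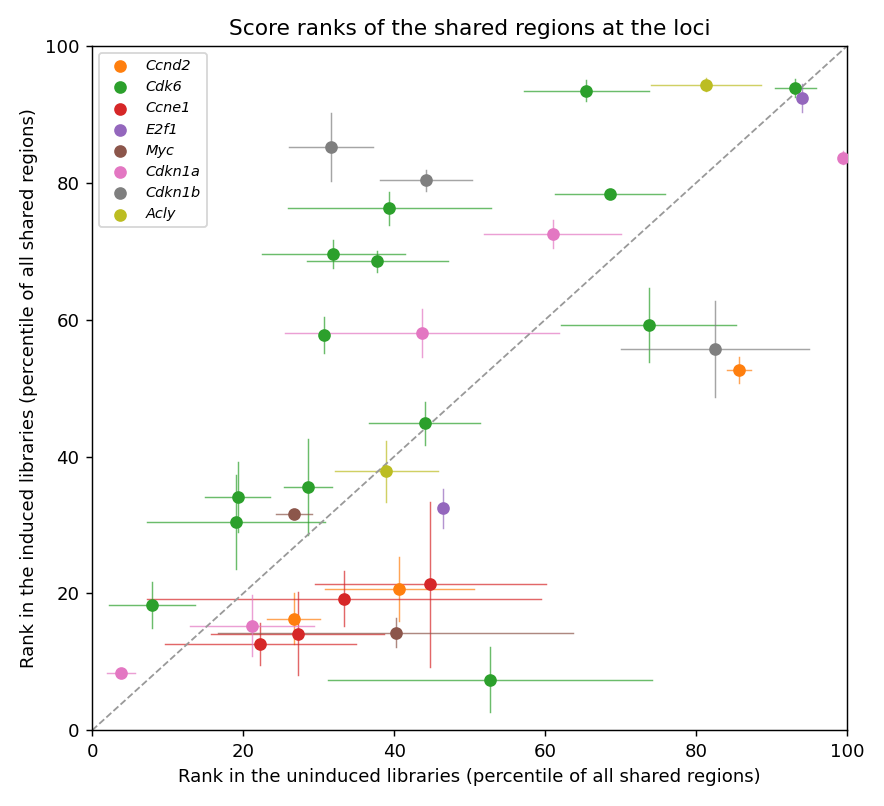
Score rank of the 35 shared regions among all shared regions of the genome (percentile), induced libraries on the vertical and uninduced libraries on the horizontal axis, coloured by locus. Points are means of 2 libraries, bars span the 2 libraries, and the dashed line marks equal ranks. The 3 Ccnd2 regions lie below the line and 2 of the 3 Cdkn1b regions far above it.

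Wide regions were also present: 6 of the 103 (5.83%) spanned at least 3000 bp, against 1.86% of all regions, with 2 at Cdkn1b and 1 each at Ccnd2, Cdk6, Myc and Acly. Because a wide peak in one list can face several narrow peaks in another, peak number and covered length need not agree, as at Cdkn1b. The replicates disagreed mostly in one direction. A peak in uninduced replicate 2 without one in uninduced replicate 1 was found in 18 regions and the reverse in 3, and a peak in induced replicate 1 without one in induced replicate 2 in 22 regions and the reverse in 5. In each pair the longer list held the excess. Of these regions, 15 (14.6%) lacked a peak only in uninduced replicate 1, as did 14.6% of all regions of the genome. A peak in induced replicate 1 alone was found in 18 (17.5%), against 15.4% of all regions. A peak in uninduced replicate 1 alone was found in 0, against 5.46% of all regions. The authors' merged lists held more induced than uninduced peaks at 8 loci, and 6 each at Cdkn1b.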

How the data were processed

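PU.1 ChIP-seq peak lists of 4 libraries were used, with 2 merged lists; the 2 input libraries were not analysed here. Per the submitters' processing notes, MACS 1.4.1, Bowtie and Trim Galore were used with build mm9. Each peak's score is a value the authors deposited, on a scale not given in the sources used here. Whether an input served as control and how lists were merged are not given either. Lists show only peaks past the authors' threshold, so an absent peak means none was called.

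Regions, ranks, exact permutation tests over libraries and covered lengths were computed with Python 3.11.15, NumPy 2.4.6, SciPy 1.17.1 and matplotlib 3.10.9. Code was tested on simulated lists. The genes, windows, classes and comparisons were chosen with earlier results of these data known. At each locus the regions named by rule were those with the highest lower induced score, overall and among gained regions, and lost regions; other regions named were chosen after their values were seen. Gene neighbours and promoters came from RefSeq GRCm38.p6 tables, used for names and letters only. The alternatives are a 50% overlap, a score of at least 100, equal lists, leaving out each library, placement by midpoint, windows wider by 50 kb on each side, merged lists and a replicate block; leaving out the Cdk6 window was added after seeing the data.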

Additional observations from a re-analysis of the deposited data

How the results depend on the processing

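The excess of induced peaks kept its direction in all 11 alternatives, between 2 peaks (lists of equal length) and 60 (windows wider by 50 kb on each side). Covered length also kept its direction, between 26.2 and 92.26 kb. Leaving out 1 library could not reverse either, because both induced libraries lay above both uninduced ones. The replicate block repeats the main difference. The rank difference of shared regions turned to -6.98 without the Cdk6 window. It was 2.87 without uninduced replicate 1, 3.74 without uninduced replicate 2, 13.77 with a score of at least 100 and 13.93 with lists of equal length, and lay between 6.51 and 11.3 in the other alternatives. Gained regions numbered 7 with lists of equal length and 38 with wider windows, and 25 to 41 when 1 library was left out. Shared regions numbered 22 with a score of at least 100, 53 with wider windows and 21 without Cdk6. Lost regions numbered 5 with a 50% overlap, 3 with lists of equal length, 1 with wider windows and 0 to 1 when 1 library was left out. With a 50% overlap, wide induced peaks at Cdk6, Cdkn1b and Acly no longer joined the narrower uninduced peaks inside them, which were then counted as lost. Wider windows hold more regions by construction, and leaving out a library cannot lower the number of gained regions. Among the 89 alternatives for single loci, the peak difference was above 0 in 82, at 0 in 4 and below 0 in 3. All 3 came with lists of equal length (Ccnd2, Ccne1 and Cdkn1a, at -0.5 for the last). Some of the 82 could not differ in direction. Leaving out the Cdk6 window repeats the main value at every other locus. Where the groups did not overlap, leaving out 1 library could not bring the difference to 0.

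The replicate numbers are not said to mark a shared culture or day, and the deviations of same-numbered libraries over shared regions correlated at -0.03. With the replicate block the difference remained 40 peaks, and the paired exact permutation test gave p = 0.5, the smallest that 2 pairs allow. Read depth is unknown, so weak sites such as those near a score of 50 cannot be told from sites just under the threshold.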
